A study of Mus musculus with 28 samples.

Results

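Interferon-stimulated genes were followed as a group in macrophages grown from mouse bone marrow (BMDM). The list holds 35 genes that type I interferon is known to switch on, and the members were found by their symbol in the annotation of the array's probe sets. Of the 35, 33 were measured, among 18193 genes in all, each through its brightest probe set, by the mean over the 28 arrays. The only probe set of Isg15 names a second gene too and was not used, and Ifi44 is not named by any probe set of that annotation.

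RA839 is a small molecule that interferes with Keap1, the protein that keeps the transcription factor Nrf2 low, and the study compared it with loss of Nrf2 and with knockdown of Keap1. All cells came from C57BL/6 J mice aged 12 weeks. In the compound experiment, cells of Nrf2 +/+ mice (WT) or Nrf2 -/- mice (KO) were kept for 4 h with RA839 or with DMSO alone, with DMSO at 0.2% in each group. This gave the groups WT_DMSO, WT_RA839, KO_DMSO and KO_RA839. In the siRNA experiment, Nrf2 +/+ cells received a control siRNA (siControl) or 1 of 2 Keap1 siRNAs, siKeap1-1 or siKeap1-2. There are 7 groups with 4 arrays in each, called biological replicates in the series' design text. The sources used here do not give the dose of RA839, the siRNA sequences, the time after transfection, the part of the gene that the Nrf2 -/- allele lacks or whether mice were pooled. The design text writes RA838 once where the labels write RA839.

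Type I interferons are secreted proteins that warn neighbouring cells of infection. They bind the receptor formed by Ifnar1 and Ifnar2, and the kinases Jak1 and Tyk2 then activate factors such as Stat2, which works with Irf9 to switch on genes that carry an interferon-stimulated response element (ISRE). The products of these genes degrade or hide viral RNA, sense it, or feed back on the pathway, and macrophages keep many of them at a basal level without infection. Keap1 directs the degradation of Nrf2, which drives genes of antioxidant defence.

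The response element gives the group a feature that the choice of members did not use. Its core was searched as GAAANNGAAA on both strands in the RefSeq promoter table (build GRCm38.p6), which holds 250 bases before and 50 bases after each gene start. The reverse strand reads TTTCNNTTTC, and matches may overlap. The table had entries for 24 of the 33 measured members, and 13 of the 24 had a match (54.2%). Over all 32851 promoters of the table, 3.44% had one, and over the 30 promoters of the 24 members 46.7%. The 7 stretches that follow are upstream of the gene models of members that passed a test in one of the comparisons that follow, printed on the gene's strand with the matches in capitals. They are shown for the letters that 13 of the 24 members have, with 2 matches in Ifit1 and in Gbp3.
Ifit1: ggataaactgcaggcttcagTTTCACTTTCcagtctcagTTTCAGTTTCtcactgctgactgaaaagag
Rsad2: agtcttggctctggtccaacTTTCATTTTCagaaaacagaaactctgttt
Oas3: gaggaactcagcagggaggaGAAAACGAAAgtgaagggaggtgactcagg
Stat2: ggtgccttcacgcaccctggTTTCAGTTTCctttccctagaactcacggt
Gbp2: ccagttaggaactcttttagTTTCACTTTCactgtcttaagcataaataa
Gbp3: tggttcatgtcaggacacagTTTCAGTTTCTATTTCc
Trim30a: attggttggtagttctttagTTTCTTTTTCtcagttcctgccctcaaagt

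The Ifit1 stretch lies at chr19:34640765-34640833 on the plus strand, with matches that begin at positions −104 and −85 from the start. The Rsad2 stretch (chr12:26456543-26456592, minus strand) and the Oas3 stretch (chr5:120777705-120777754, minus strand) have 1 match each. So do those of Stat2 (chr10:128270256-128270305, plus strand), Gbp2 (chr3:142620584-142620633, plus strand) and Trim30a (chr7:104465200-104465249, minus strand). The Gbp3 stretch (chr3:142559979-142560015, plus strand) has 2 matches that overlap. Members with an entry and no match include Irf7, Irf9, Ifit2, Xaf1, Cmpk2 and Trim25, which says only that these letters are not in this window. For comparison, the core of the antioxidant response element that Nrf2 binds, searched as TGACNNNGC on both strands, was found for 7 of the 24 members (29.2%) and in 7 of their 30 promoters (23.3%), against 12.4% of all promoters. A match is a description and shows no binding.

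The labels were met by the targeted genes. Nfe2l2, which encodes Nrf2, read 12.72 ± 0.20 (SD, n = 4) on the log2 scale in WT_DMSO and 3.40 ± 0.11 in KO_DMSO. Keap1 read 11.09 ± 0.10 in siControl, 9.06 ± 0.09 in siKeap1-1 and 9.26 ± 0.15 in siKeap1-2. The macrophage markers (7 of 7 measured, among them Cd68, Adgre1 and Csf1r) averaged 11.52 to 12.70 over the 28 arrays, and those of T cells, B cells and NK cells 3.49 to 6.01. The means were 4.12 to 5.19 for fibroblast markers, 5.76 to 7.71 for neutrophil markers, 7.38 to 8.36 for conventional dendritic cell markers and 7.5 to 8.44 for plasmacytoid dendritic cell markers. Single genes of these lists were bright, such as Itgax (13.17 to 13.72), Tcf4 (11.51 to 12.79) and S100a8 (10.68 to 12.87), while Xcr1 (3.10 to 3.76), Siglech (5.46 to 6.14) and Elane (3.0 to 4.60) were low. On WT_RA839 array 2 the 3′ probe set of the control gene Gapdh exceeded the 5′ probe set by 3.74, against 0.77 to 1.00 on the other compound arrays, and for Actb by 3.10 against 1.28 to 2.04. That array stands apart in RNA quality by this measure. Counts, medians and some of the named changes are given with and without it. Array medians were 5.61 to 5.71 in the compound experiment and 5.91 to 5.96 in the siRNA experiment, which appear to have been normalized apart, so every test stays within 1 experiment.

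In the compound experiment, most interferon-stimulated genes differed more between replicates of a group than most genes did, and most moved together from array to array. The level of the group on an array is given as the median, over the 33 members, of the log2 value minus that gene's mean over the arrays of the experiment. In KO_DMSO this level was 0.75 on array 1, 0.77 on array 2, −0.20 on array 3 and −0.23 on array 4. In KO_RA839 it was 0.61, 0.71, −0.23 and −0.14 on arrays 1 to 4. Arrays 1 and 2 were thus high and arrays 3 and 4 low in both KO groups.

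In WT the order of the arrays was another one. The level was −0.35, −0.69, 0.13 and 0.03 on arrays 1 to 4 of WT_DMSO and −0.39, −1.03, 0.01 and 0.08 on those of WT_RA839. Array 2 was the lowest of its group for 28 of 33 members in WT_DMSO and for 26 in WT_RA839, where it is also the array with the high 3′ to 5′ difference. In both treatments arrays 1 and 2 were the lower ones and arrays 3 and 4 the higher ones, and what a number shares (a mouse, a culture or a day) is not stated in the labels. The siRNA experiment was flatter, with levels of 0.10, 0.30, 0.22 and 0.11 for siControl, −0.21, 0.03, 0.08 and −0.06 for siKeap1-1, and −0.20, −0.13, −0.05 and −0.16 for siKeap1-2.

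**Figure D1:**
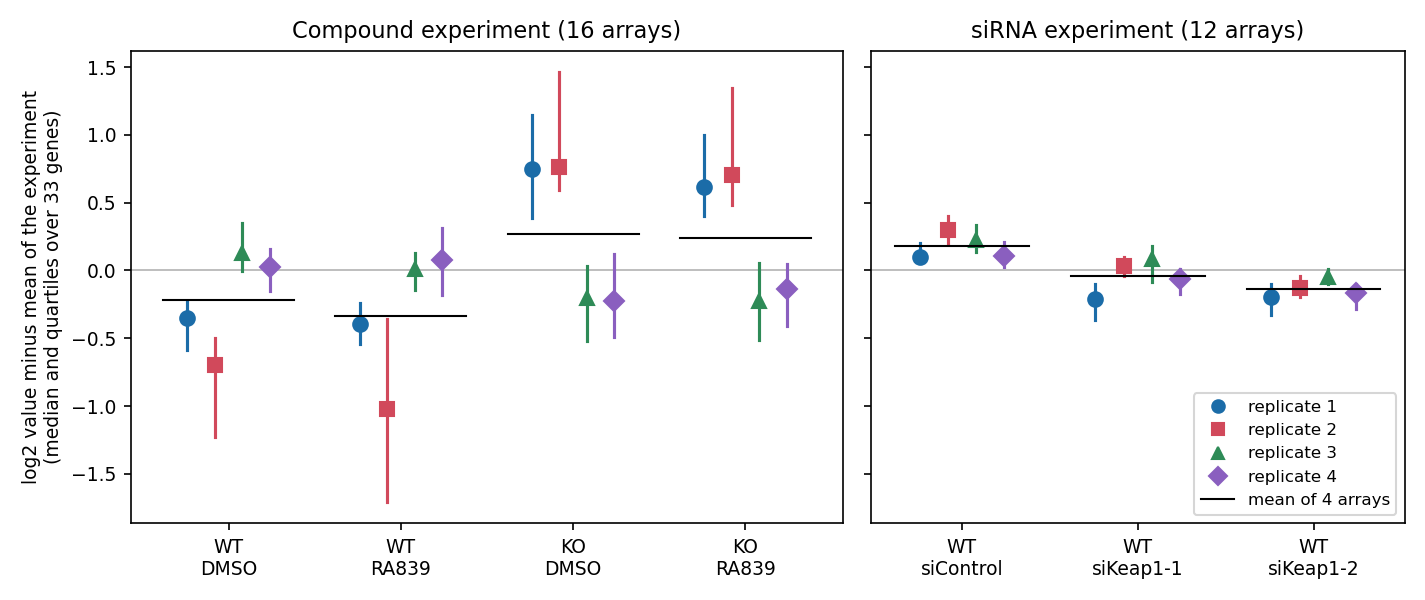
Level of the 33 interferon-stimulated genes on each array, as the median (symbol) and quartiles (vertical line) of the log2 value minus the mean of the experiment; symbols mark the replicate number and horizontal lines the mean of 4 arrays. In both KO groups replicates 1 and 2 lie between 0.61 and 0.77 and replicates 3 and 4 between −0.23 and −0.14, and in WT replicate 2 is the lowest, while all siRNA arrays lie between −0.21 and 0.30.

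The spread within groups, pooled over the 4 groups of the compound experiment, had a median SD of 0.46 for the members against 0.19 for all genes. Of the 33 members, 27 lay above the 90th percentile of all genes (0.35). In the siRNA experiment the medians were 0.15 and 0.14, and 3 of 33 members lay above the 90th percentile (0.25). Rtp4, a transporter of receptors with antiviral roles, had the largest pooled SD of the group in the compound experiment (1.43), rank 13 of 18193 genes. It was followed by Ifit3 (1.42, rank 14), Ifit2 (1.39, rank 16), Ifit1 (1.34, rank 19) and the chemokine Cxcl10 (1.32, rank 20). In the siRNA experiment Cmpk2, a nucleotide kinase encoded next to Rsad2, led with 0.35.

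Values of these genes show the range that replicates of a group covered. Ifit1, whose product binds viral RNA that lacks the host cap, read 8.15, 6.96, 9.45 and 8.81 on arrays 1 to 4 of WT_DMSO and 10.51, 10.96, 8.09 and 8.08 on those of KO_DMSO. Under RA839 it read 8.46, 6.61, 9.31 and 9.30 in WT and 10.65, 10.89, 8.15 and 8.38 in KO. KO arrays 1 and 2 lie above every WT array, and KO arrays 3 and 4 lie inside the WT range.

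Rtp4 read 8.68, 6.59, 9.85 and 9.82 in WT_DMSO, 8.44, 6.21, 9.54 and 9.73 in WT_RA839, 11.20, 11.56, 9.21 and 9.17 in KO_DMSO, and 11.08, 11.41, 9.09 and 9.05 in KO_RA839. Its WT_DMSO arrays thus span the range from 6.59 to 9.85 within 1 genotype and treatment. Cxcl10, which attracts activated T cells, read 6.19, 6.00, 7.66 and 6.91 in WT_DMSO and 8.33, 9.70, 6.16 and 6.33 in KO_DMSO. Under RA839 it read 6.58, 5.58, 7.20 and 6.93 in WT and 8.78, 9.66, 6.01 and 6.55 in KO. KO arrays 3 and 4 again fall inside the range of the WT arrays of the same treatment.

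Ifit2 and Ifit3, partners of Ifit1, behaved alike. Ifit2 read 8.36, 7.62, 9.36 and 9.0 in WT_DMSO, 8.48, 6.84, 9.51 and 9.45 in WT_RA839, 10.52, 11.02, 7.87 and 7.59 in KO_DMSO, and 10.62, 10.85, 7.98 and 8.13 in KO_RA839. Ifit3 read 8.28, 7.17, 9.45 and 9.10 in WT_DMSO, 8.40, 8.32, 9.24 and 9.38 in WT_RA839, 10.25, 10.66, 7.17 and 7.28 in KO_DMSO, and 10.31, 10.60, 7.22 and 7.46 in KO_RA839. For Ifit3 under RA839, KO arrays 3 and 4 lie below all WT arrays while KO arrays 1 and 2 lie above them.

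**Figure D2:**
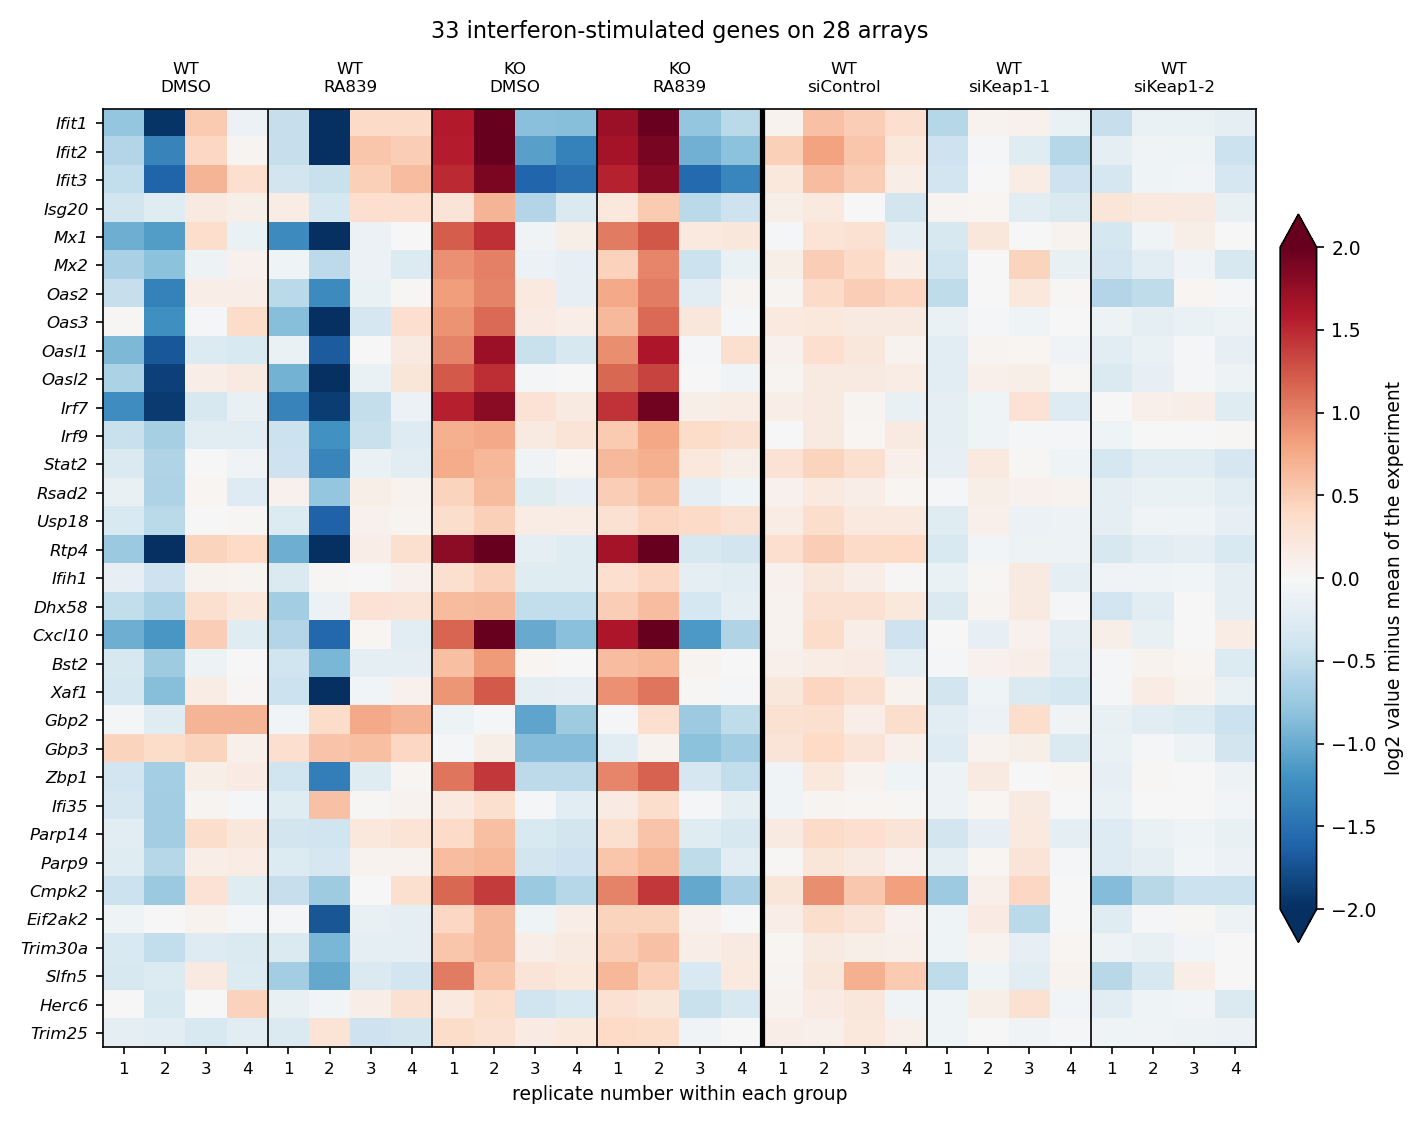
Each of the 33 members (rows) on each of the 28 arrays (columns, by group and replicate number), coloured by the log2 value minus the gene's mean over the arrays of its experiment, with the scale ending at ±2. The thick line parts the experiments; KO replicates 1 and 2 are red for nearly all rows, WT replicate 2 is blue for most rows (not for Gbp3, nor for Ifi35 in WT_RA839), and the siRNA arrays are pale.

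The members were higher in the siRNA experiment than in the compound experiment, a comparison made after the values were seen and without a test, since the array medians point to separate normalization. The siControl mean exceeded the WT_DMSO mean for 32 of 33 members, by a median of 2.00 on the log2 scale, against 0.22 over all genes. For 31 members all 4 siControl arrays lay above all 4 WT_DMSO arrays, which held for 40% of all genes. Rtp4 differed by 4.42, Irf7 by 4.32 and Ifit2 by 3.97, whereas Gbp2 differed by 0.30 and Cxcl10 by −0.31. Whether the difference lies in the cells, the transfection or the normalization cannot be told apart.

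RA839 did not change any interferon-stimulated gene past the threshold in either genotype. With limma and Benjamini-Hochberg adjustment over all genes, 0 of 33 members had an adjusted p under 0.05 in WT, where 0.66% of all genes did. At an unadjusted p under 0.05, 0 members passed, against 10.4% of all genes. The smallest adjusted p of a member was 0.537. The members' changes ran from −0.65 to 0.39 with a median of −0.01, and 16 of 33 were above 0 (47.9% of all genes). In KO, 0 of 33 members passed (0% of all genes), and 0 at an unadjusted p under 0.05 (1.76%), with changes from −0.26 to 0.24. The difference between these responses was called for 0 of 33 members, against 0.115% of all genes, and for 0 at an unadjusted p under 0.05, against 3.73%.

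How far a small change could have been seen differs between members. The standard errors of the RA839 change ran from 0.14 (Trim25) to 0.89 (Rtp4), in the fit without the block. With the replicate number as a block they were 0.13 for Ifit1, 0.15 for Cxcl10, 0.18 for Ifit2 and Ifit3 and 0.065 for Rtp4, and again 0 of 33 members passed in WT, where 1.73% of all genes rose and 0.94% fell. Rtp4 was lower with RA839 in all 4 pairs of each genotype, with a WT change of −0.25 (adjusted p 0.0766 with the block). Without WT_RA839 array 2, in the fit without the block, the WT change of Rtp4 was 0.50 (adjusted p = 0.96). That fit keeps WT_DMSO array 2, the lowest array of its group for Rtp4 (6.59). Irf7, the factor that amplifies interferon production, read 7.86, 7.18, 8.78 and 8.95 in WT_DMSO and 7.77, 7.21, 8.62 and 8.98 in WT_RA839. Its values for the same replicate number lie close together, and the change was −0.05 ± 0.53 (SE, limma adjusted p = 0.982). Oas3, an oligoadenylate synthetase that activates RNase L, had the lowest change of the group in WT, −0.65 ± 0.51 (adjusted p = 0.69), with 11.16, 9.91, 11.11 and 11.51 in WT_DMSO and 10.29, 8.54, 10.81 and 11.47 in WT_RA839. WT_RA839 array 2 has the lowest of these values. Without WT_RA839 array 2 the change of Oas3 was −0.07, the median change of the members was 0.12, against −0.01 with it, and the count stayed at 0. WT_DMSO array 2, also low, stays in that fit. Between same-numbered WT arrays Oas3 changed by −0.88, −1.37, −0.31 and −0.04. Without replicate 2 of WT in both treatments the median change of the members was −0.06.

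Between genotypes, Irf7, Irf9, Trim30a and Slfn5 were higher in KO in both treatments and Gbp3 was lower. In DMSO, 5 of 33 members were higher in KO (11.2% of all genes) and 1 was lower (13.8% of all genes). The share of members called in either direction, 18.2%, is not above that of all genes, 25.1%. The median change of the members was 0.59, against −0.02 over all genes, and 30 of 33 were above 0 (47.5% of all genes). All KO arrays lay above all WT arrays for 6 members (14.1% of all genes). With RA839, 8 members were higher in KO (14.6% of all genes) and 1 was lower (15.8%), together 27.3% against 30.4%. The median there was 0.76 against −0.01, with 28 of 33 above 0 (48.9% of all genes). Without WT_RA839 array 2 that median was 0.49, and 6 members were higher and 1 was lower. Under RA839, 8 members lay above WT on all KO arrays (14.9% of all genes) and 1 below (16%). The comparisons use different arrays, but same-numbered arrays deviate together.

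Irf7 had the largest rise in DMSO. It read 10.65, 10.90, 9.40 and 9.28 in KO_DMSO, so every KO array lies above every WT array, and arrays 1 and 2 stand more than 1 unit above arrays 3 and 4. The change was 1.86 ± 0.53 (3.64-fold, adjusted p = 0.0183). In KO_RA839 it read 10.54, 11.03, 9.21 and 9.25, again above all WT arrays, with a change of 1.87 ± 0.53 (adjusted p = 0.0155). The call in DMSO was lost without WT_DMSO array 2, KO_DMSO array 1 or KO_DMSO array 2, and that under RA839 without WT_RA839 array 2 or KO_RA839 array 2, with adjusted p up to 0.0604 and 0.0521.

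Irf9, the DNA-binding partner of Stat2, separated the genotypes with less spread. It read 10.01, 9.78, 10.23 and 10.23 in WT_DMSO and 11.17, 11.22, 10.63 and 10.71 in KO_DMSO, a change of 0.87 ± 0.20 (adjusted p = 0.00454). Under RA839 it read 10.02, 9.24, 10.01 and 10.20 in WT and 10.97, 11.22, 10.82 and 10.76 in KO, a change of 1.07 ± 0.20 (adjusted p = 0.000807). No KO array overlaps a WT array in either treatment, and the calls were kept under all 26 alternatives in each.

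Stat2 passed under RA839 only, and the difference between treatments, tested as the interaction, was not called. It read 7.91, 7.0, 8.19 and 8.12 in WT_RA839 and 8.97, 9.03, 8.53 and 8.44 in KO_RA839, a change of 0.94 ± 0.26 (adjusted p = 0.0122), with no overlap. Without WT_RA839 array 2 Stat2 had 0.67 (adjusted p = 0.0325). In DMSO it read 8.04, 7.73, 8.32 and 8.25 in WT and 9.07, 8.99, 8.25 and 8.36 in KO, where the groups overlap and the change was 0.58 ± 0.26. The other probe set of Stat2 passed in DMSO as well (0.78, adjusted p over all probe sets = 0.00393).

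Trim30a, a ubiquitin ligase that restrains inflammatory signalling, was higher in KO in both treatments. It read 12.41, 12.22, 12.45 and 12.43 in WT_DMSO and 13.27, 13.37, 12.86 and 12.90 in KO_DMSO, a change of 0.72 ± 0.17 (adjusted p = 0.00534). Under RA839 it read 12.42, 11.80, 12.53 and 12.53 in WT and 13.21, 13.30, 12.85 and 12.90 in KO, a change of 0.75 ± 0.17 (adjusted p = 0.0034). The genotypes do not overlap, and both calls were kept under all 26 alternatives.

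Slfn5, of the Schlafen family of interferon-induced growth regulators, read 5.91, 5.95, 6.41 and 5.96 in WT_DMSO and 7.28, 6.78, 6.50 and 6.44 in KO_DMSO (0.69 ± 0.22, adjusted p = 0.0354). Under RA839 it read 5.54, 5.21, 5.94 and 5.85 in WT and 6.89, 6.72, 5.93 and 6.42 in KO (0.86 ± 0.22, adjusted p = 0.0097). KO_RA839 array 3 overlaps WT there. Another Slfn5 probe set had −0.41 and −0.27, with adjusted p of 0.311 and 0.505, so the probe sets disagree. With the mean over probe sets the call was lost in both treatments, and in DMSO it was also lost without WT_DMSO array 1, 2 or 4 or KO_DMSO array 1 or 2, with a largest adjusted p of 0.301 among the alternatives.

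Trim25, the ubiquitin ligase that helps the RNA sensor RIG-I signal, read 12.67, 12.65, 12.57 and 12.66 in WT_DMSO and 13.23, 13.17, 13.03 and 13.08 in KO_DMSO (0.49 ± 0.14, adjusted p = 0.019). Its groups do not overlap, but its probe sets disagree. One had 0.90 (adjusted p = 0.00132) and another −0.49 (adjusted p = 0.0406), both over all probe sets. The call was lost with the mean over probe sets and without KO_DMSO array 1 (adjusted p up to 0.0827). Under RA839 Trim25 had 0.37 ± 0.14 (adjusted p = 0.0576), and 0.53 without WT_RA839 array 2 (adjusted p = 0.00235).

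Under RA839 the rises also included Mx1, a gene of the dynamin-like GTPase family. Mx1 read 8.78, 7.89, 9.94 and 10.04 in WT_RA839 and 11.09, 11.29, 10.24 and 10.28 in KO_RA839, a change of 1.56 ± 0.49 (adjusted p = 0.0247) with no overlap. Its call was lost without WT_RA839 array 1 or 2 or KO_RA839 array 1 or 2 and with array weights (adjusted p at most 0.0795 in any alternative), and without WT_RA839 array 2 its change was 1.14. Usp18, which removes Isg15 from proteins and dampens the receptor, had 0.80 ± 0.28 (adjusted p = 0.0396), and Bst2, which tethers budding virus to the cell, 0.76 ± 0.23 (adjusted p = 0.0232). The Usp18 call was lost without WT_RA839 array 1 or any of the 4 KO_RA839 arrays, with quantile normalization and with only the groups compared in the fit. Without WT_RA839 array 2 the Usp18 change was 0.40 (adjusted p = 0.0405). The Bst2 call was lost without WT_RA839 array 2 or KO_RA839 array 1 or 2 and with array weights. Usp18 reached an adjusted p of 0.113 and Bst2 of 0.0745.

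The single fall was that of Gbp3, a guanylate-binding GTPase that acts on vacuoles of intracellular microbes. It read 11.13, 11.07, 11.15 and 10.80 in WT_DMSO and 10.67, 10.82, 9.83 and 9.83 in KO_DMSO, where KO array 2 overlaps WT, a change of −0.75 ± 0.23 (adjusted p = 0.0251). Under RA839 it read 11.02, 11.27, 11.29 and 11.10 in WT and 10.49, 10.77, 9.88 and 10.00 in KO, with no overlap, a change of −0.89 ± 0.23 (adjusted p = 0.00842). This call was kept under all 26 alternatives, whereas that in DMSO was lost without WT_DMSO array 1 or 3 or KO_DMSO array 3 or 4 (adjusted p up to 0.0873). Gbp2, its close relative, had −0.75 ± 0.29 in DMSO (adjusted p = 0.0746, or 0.0474 with the replicate number as a block). Another Gbp2 probe set read 10.03, 9.64, 10.965 and 10.97 in WT_DMSO and 10.37, 10.73, 9.20 and 9.54 in KO_DMSO, where the groups overlap. Within KO, arrays 1 and 2 were the higher ones for Gbp3.

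The 5 members with the widest spread did not pass. Rtp4 had 1.55 ± 0.89 in DMSO (adjusted p = 0.224) and 1.68 ± 0.89 under RA839 (adjusted p = 0.172), and Ifit1 1.07 ± 0.84 (adjusted p = 0.386) and 1.10 ± 0.84 (adjusted p = 0.35). Cxcl10 had 0.94 and 1.18, Ifit2 0.66 and 0.82, and Ifit3 0.34 (adjusted p = 0.816) and 0.06 (adjusted p = 0.969). Without WT_RA839 array 2 the changes under RA839 were 0.92 for Rtp4, 0.49 for Ifit1, 0.85 for Cxcl10, 0.25 for Ifit2 and −0.11 for Ifit3. The kinase Eif2ak2 lay above WT on every KO_RA839 array, at 0.76 ± 0.28 (adjusted p = 0.0546), and at 0.36 without WT_RA839 array 2 (adjusted p = 0.089). The 27 members not called in DMSO had changes from −0.75 (Gbp2) to 1.55 (Rtp4), and the 24 not called under RA839 from −0.66 (Gbp2) to 1.68 (Rtp4).

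With the replicate number as a block, 6 members were higher (11.1% of all genes) and 2 lower (13.6%) in KO in DMSO, and 10 higher (14.5%) and 1 lower (15.6%) under RA839. Besides Gbp2, the members gained were Bst2 in DMSO (0.65, adjusted p 0.0519 without and 0.0285 with the block) and Oas3 (1.35, 0.0549 and 0.0334) and Oasl2 (1.34, 0.0819 and 0.046) under RA839. Without WT_RA839 array 2, in the fit without the block, Oas3 had 0.77 (adjusted p = 0.165) and Oasl2 0.89 (adjusted p = 0.243). Single KO arrays differed in how many members they raised. On KO_DMSO arrays 1 and 2, 30 members each lay above the highest WT_DMSO array, and on arrays 3 and 4 only 8 each did, with 4 and 3 members below the lowest WT_DMSO array. Under RA839 the numbers above were 29, 29, 8 and 11. The share of all genes was not counted array by array, so these numbers describe the members only. Without KO_DMSO array 1 the count in DMSO was 3 members in place of 6 (20.9% of all genes in place of 25.1%). Without replicate 1 of KO in both treatments it was 3 in DMSO and 5 in place of 9 under RA839, where the share of all genes is not given here. Without replicate 1 of WT in both treatments the count was 3 in DMSO (20.9% of all genes). The share of all genes called thus fell as well where it is given. The mean of the macrophage markers was 11.94 to 12.19 in WT_DMSO and 12.19 to 12.50 in KO_DMSO. Of the 7 markers, 2 were higher and 1 lower in KO_DMSO. Cd14 covered 12.77 to 12.89 there against 10.84 to 11.29 in WT_DMSO, Fcgr1 11.13 to 12.42 against 9.29 to 10.61, and Itgam, the lower one, 9.11 to 9.52 against 10.25 to 10.64. The part of these markers in the results was not tested. In bulk RNA, fewer cells of a type and less RNA per cell cannot be told apart.

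**Figure D3:**
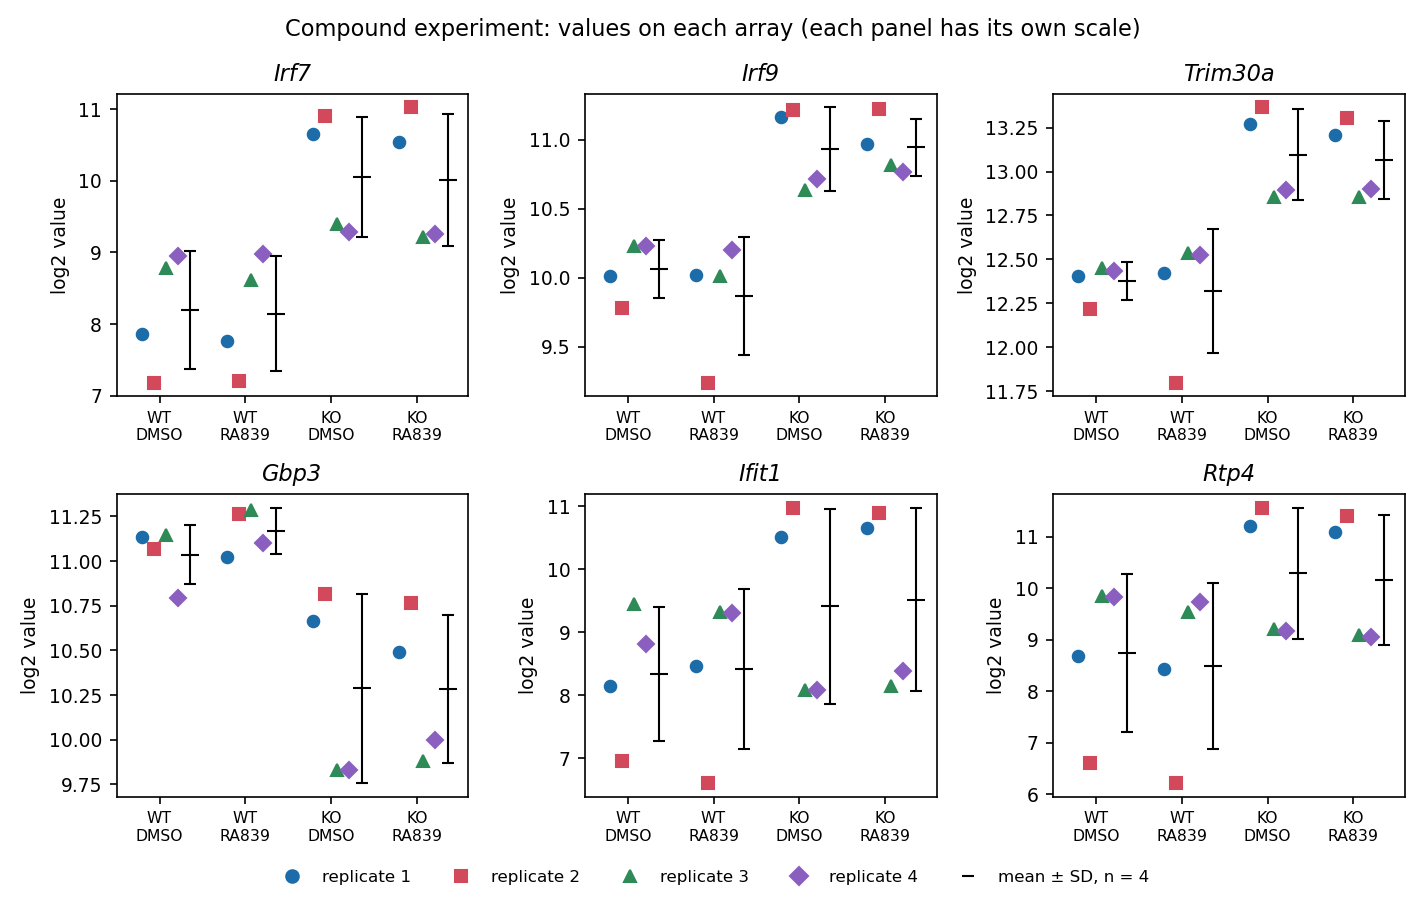
Log2 values of 6 members on each of the 16 compound arrays, by group, with symbols for the replicate number and the mean ± SD (n = 4) in black; each panel has its own scale. KO lies above WT without overlap for Irf7, Irf9 and Trim30a and below it for Gbp3 under RA839, while KO replicates 3 and 4 of Ifit1 and Rtp4 fall within the WT range.

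Knockdown of Keap1 went with lower interferon-stimulated genes, and no member passed as higher than siControl. With siKeap1-1, 10 of 33 members fell (6.39% of all genes) and 0 rose (8.67% of all genes). With siKeap1-2, 18 fell (4.89% of all genes) and 0 rose (6.32% of all genes). The median change of the members was −0.24 with siKeap1-1 and −0.29 with siKeap1-2, against 0.02 and 0.03 over all genes, and 32 of 33 members were below 0 in each, where 54.1% and 56.9% of all genes were above 0. At an unadjusted p under 0.05, 0 members were higher with either, and the share of all genes at that threshold is not given here. Both comparisons use the same 4 siControl arrays, so they are not independent.

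The same replicate numbers pair the arrays here, and with the number as a block 17 members fell with siKeap1-1, where 10.5% of all genes did. With siKeap1-2 the block gave 24 (9.08%). Taken pair by pair, 21 members fell in all 4 pairs with siKeap1-1 and 29 with siKeap1-2, as did 17.7% and 19% of all genes. For 8 members all siKeap1-1 arrays lay below all siControl arrays (8.5% of all genes), and for 22 all siKeap1-2 arrays did (8.84%). Array 1 of siKeap1-1 was below the lowest siControl array for 30 members, arrays 2 to 4 for 19, 12 and 25. The numbers for siKeap1-2 were 29, 25, 24 and 28. For single arrays the share of all genes was not counted.

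**Figure D4:**
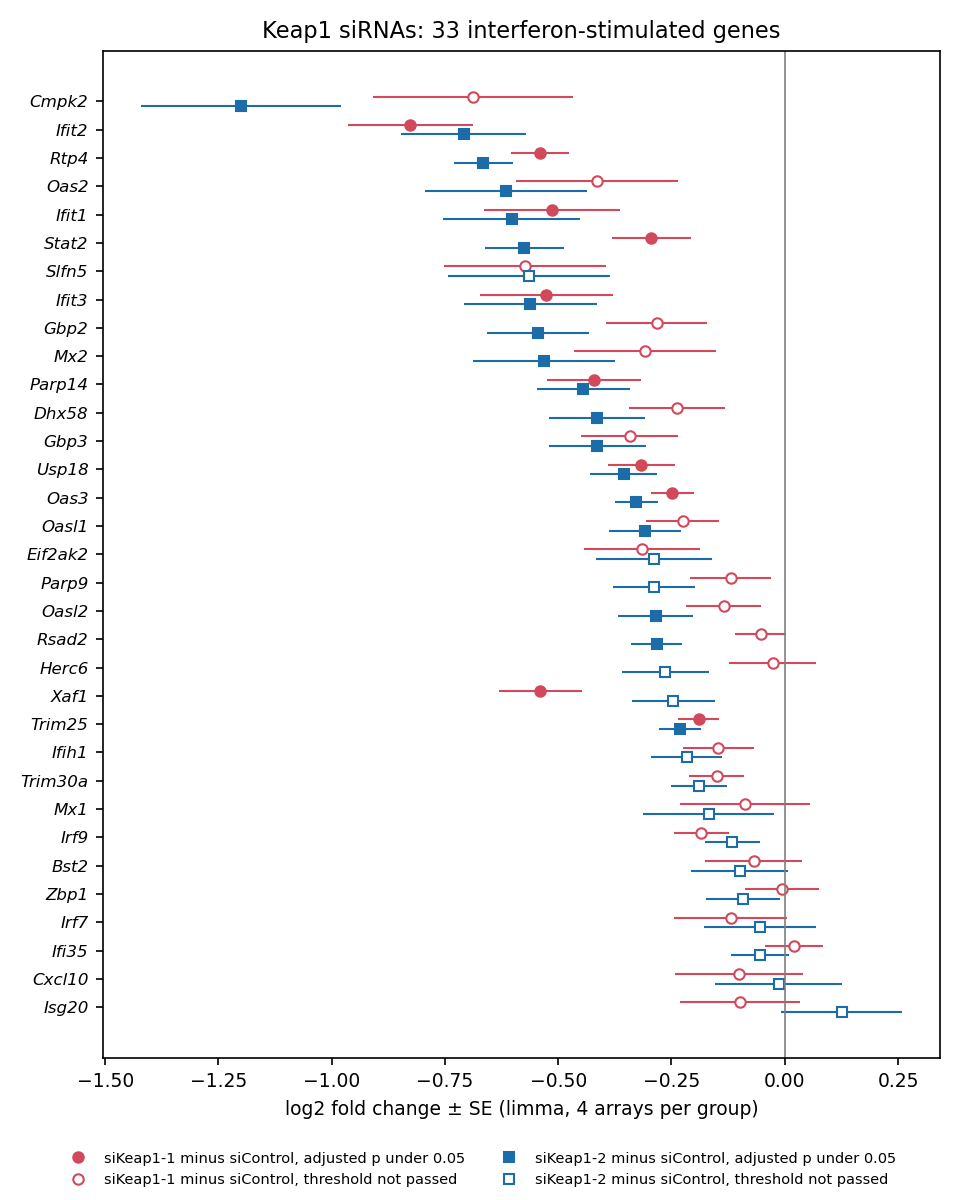
Log2 fold change ± SE (horizontal axis) of the 33 members with siKeap1-1 (circles) and siKeap1-2 (squares) against siControl, 4 arrays per group, sorted by the siKeap1-2 change; filled symbols passed an adjusted p of 0.05. Nearly all points lie left of 0, with Cmpk2 lowest at −1.20 with siKeap1-2, and the same siControl arrays serve both sets.

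Among the effectors that act on viral RNA, Ifit2 fell most with siKeap1-1. It read 12.51, 12.84, 12.59 and 12.26 in siControl, 11.63, 12.00, 11.80 and 11.47 in siKeap1-1 and 11.84, 11.97, 11.95 and 11.61 in siKeap1-2. All 8 knockdown arrays lie below all siControl arrays, by −0.83 ± 0.14 (adjusted p = 0.00173) and −0.71 ± 0.14 (adjusted p = 0.00601). Ifit1 read 11.91, 12.42, 12.33 and 12.18 in siControl, 11.26, 11.90, 11.92 and 11.70 in siKeap1-1 and 11.38, 11.70, 11.70 and 11.65 in siKeap1-2, so siKeap1-1 overlaps siControl on 1 array and siKeap1-2 does not. Its changes were −0.51 ± 0.15 (adjusted p = 0.039) and −0.60 ± 0.15 (adjusted p = 0.0234). Ifit3 read 12.07, 12.48, 12.36 and 12.00 in siControl, 11.48, 11.87, 12.01 and 11.44 in siKeap1-1 and 11.53, 11.78, 11.81 and 11.53 in siKeap1-2. It fell by 0.53 ± 0.15 (adjusted p = 0.0309) and by 0.56 ± 0.15 (adjusted p = 0.0283).

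Oas3 changed less, yet with a small spread. It read 13.34, 13.34, 13.32 and 13.32 in siControl, 13.01, 13.11, 13.06 and 13.15 in siKeap1-1 and 13.03, 12.94, 13.00 and 13.03 in siKeap1-2. The changes were −0.25 ± 0.05 (adjusted p = 0.0041) and −0.33 ± 0.05 (adjusted p = 0.000896), with no overlap. Oas2, another synthetase, read 9.60, 9.93, 10.05 and 9.98 in siControl, 9.04, 9.54, 9.76 and 9.56 in siKeap1-1 and 8.95, 9.04, 9.58 and 9.52 in siKeap1-2. It fell with siKeap1-2 (−0.62 ± 0.18, adjusted p = 0.0458), and with siKeap1-1 it had −0.41, with adjusted p 0.155 without and 0.00716 with the block.

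Their relatives Oasl1 (−0.31, adjusted p = 0.0268) and Oasl2 (−0.29, adjusted p = 0.0461) fell with siKeap1-2. With siKeap1-1 Oasl1 had −0.23 (adjusted p 0.0812 without and 0.012 with the block) and Oasl2 −0.14. Isg20, an exonuclease that degrades viral RNA, passed with neither siRNA, at −0.10 and 0.13. Mx2, the relative of Mx1, read 7.38, 7.77, 7.65 and 7.40 in siControl, 6.87, 7.26, 7.72 and 7.13 in siKeap1-1 and 6.89, 7.04, 7.20 and 6.96 in siKeap1-2. It fell with siKeap1-2 (−0.53 ± 0.16, adjusted p = 0.0488), a call that was lost without any of the 8 arrays compared (adjusted p up to 0.132). Mx1 did not pass with either, at −0.09 and −0.17.

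Cmpk2 and Rsad2, neighbours that supply antiviral nucleotides in turn, fell with siKeap1-2. Cmpk2 had the largest change of the group. It read 10.71, 11.40, 11.01 and 11.29 in siControl, 9.74, 10.57, 10.89 and 10.46 in siKeap1-1 and 9.61, 9.92, 10.05 and 10.04 in siKeap1-2, all of which lie below siControl. With siKeap1-2 the change was −1.20 ± 0.22 (2.30-fold, adjusted p = 0.00422). With siKeap1-1 it was −0.69, with adjusted p 0.057 without and 0.0065 with the block. Rsad2 (viperin) read 14.12, 14.23, 14.17 and 14.07 in siControl, 13.99, 14.15, 14.12 and 14.11 in siKeap1-1 and 13.84, 13.91, 13.90 and 13.81 in siKeap1-2. Its values with siKeap1-1 overlap siControl (−0.05 ± 0.06), and those with siKeap1-2 do not (−0.28 ± 0.06, adjusted p = 0.00635).

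Rtp4, with the largest spread in the compound experiment, had a small one here. It read 13.09, 13.24, 13.14 and 13.15 in siControl, 12.45, 12.71, 12.65 and 12.65 in siKeap1-1 and 12.43, 12.53, 12.56 and 12.45 in siKeap1-2. No knockdown array reaches siControl, with −0.54 ± 0.06 (adjusted p = 0.000162) and −0.67 ± 0.06 (adjusted p = 4.68e-05). Its other probe set fell too (−0.65 and −0.92). Xaf1, a protein linked to cell death, read 12.49, 12.69, 12.57 and 12.33 in siControl, 11.89, 12.17, 11.96 and 11.90 in siKeap1-1 and 12.24, 12.41, 12.33 and 12.13 in siKeap1-2. It fell with siKeap1-1 (−0.54 ± 0.09, adjusted p = 0.00189). With siKeap1-2 it had −0.25, with adjusted p 0.115 without and 0.00506 with the block.

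**Figure D5:**
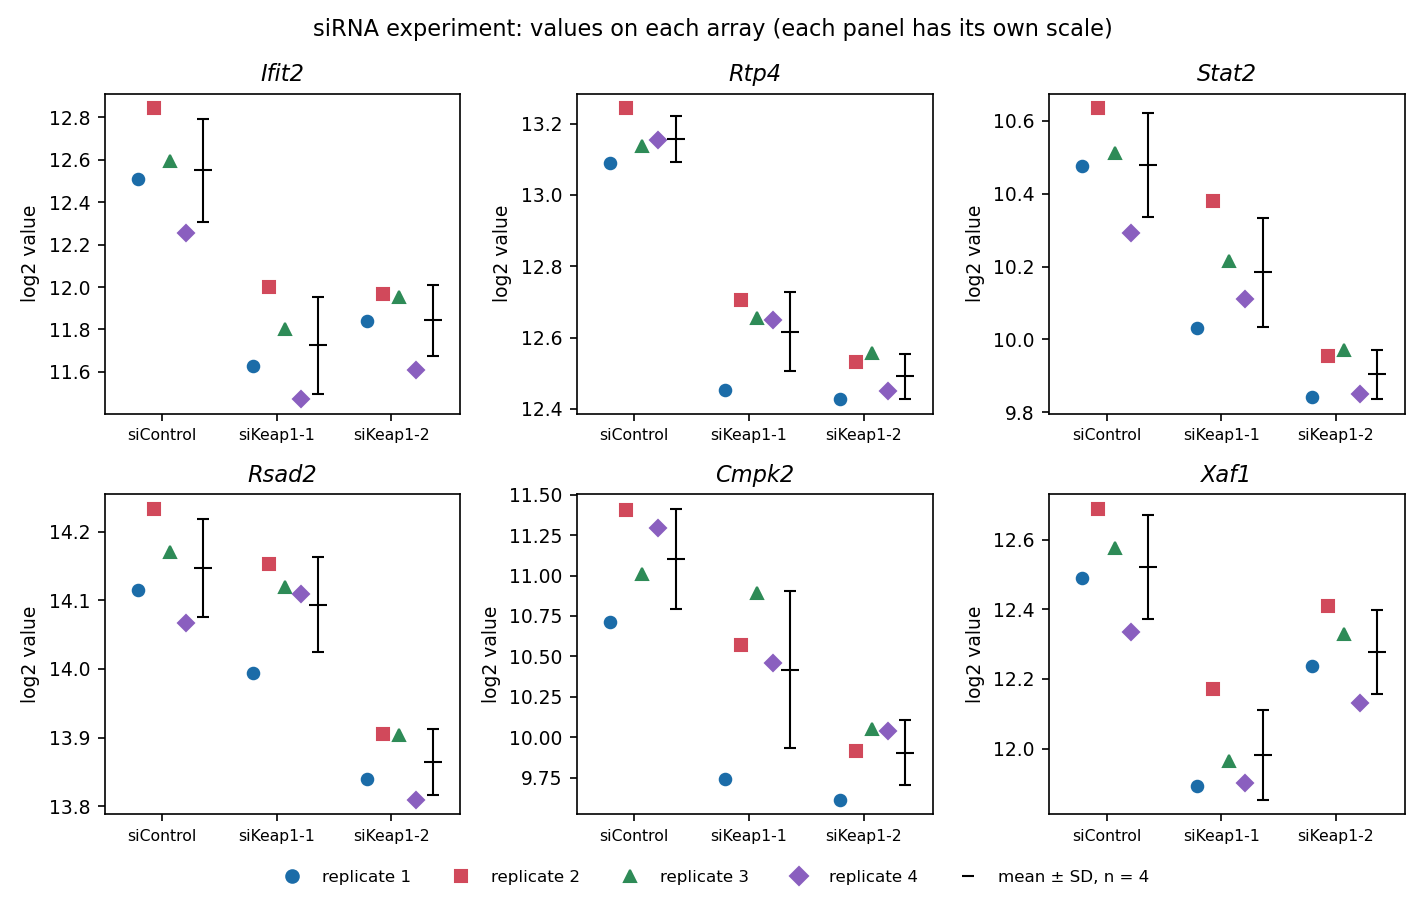
Log2 values of 6 members on each of the 12 siRNA arrays, by group, with symbols for the replicate number and the mean ± SD (n = 4) in black; each panel has its own scale. Ifit2 and Rtp4 lie below siControl on every knockdown array, Rsad2 and Cmpk2 on every siKeap1-2 array, and Xaf1 on every siKeap1-1 array.

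Of the factors that carry the signal, Stat2 fell with both siRNAs. It read 10.48, 10.64, 10.51 and 10.29 in siControl, 10.03, 10.38, 10.22 and 10.11 in siKeap1-1 and 9.84, 9.96, 9.97 and 9.85 in siKeap1-2. The changes were −0.30 ± 0.09 (adjusted p = 0.0399), with 1 siKeap1-1 array inside the siControl range, and −0.57 ± 0.09 (adjusted p = 0.00115), with none. Irf7 read 12.60, 12.64, 12.51 and 12.31 in siControl, 12.27, 12.37, 12.75 and 12.20 in siKeap1-1 and 12.47, 12.55, 12.60 and 12.22 in siKeap1-2. Its groups overlap, and its changes of −0.12 ± 0.12 and −0.05 ± 0.12 did not pass (adjusted p = 0.608 and 0.845). Irf9 read 11.85, 12.02, 11.89 and 12.02 in siControl, 11.65, 11.76, 11.80 and 11.82 in siKeap1-1 and 11.76, 11.84, 11.84 and 11.87 in siKeap1-2. With siKeap1-1 it had −0.18, with adjusted p 0.0614 without and 0.0133 with the block, and with siKeap1-2 −0.12. Irf7 and Irf9, which were higher in KO in both treatments, did not pass here in the fit without the block.

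Some sensors and regulators fell and others did not pass. Dhx58, a regulator of RNA sensing, fell with siKeap1-2 (−0.42, adjusted p = 0.0258) and had −0.24 with siKeap1-1 (adjusted p 0.171 without and 0.0106 with the block). The RNA sensor Ifih1 had −0.15 with siKeap1-1 and −0.22 with siKeap1-2 (adjusted p 0.104 without and 0.0256 with the block). Usp18 fell with both (−0.32, adjusted p = 0.0127, and −0.36, adjusted p = 0.00871), as did Trim25 (−0.19, adjusted p = 0.0148, and −0.23, adjusted p = 0.00635). The kinase Eif2ak2 (PKR), which halts translation, had −0.32 and −0.29 and did not pass. The nucleic acid sensor Zbp1 had −0.01 and −0.09 by the probe set used, while its other probe set fell with siKeap1-1 (−0.61, adjusted p over all probe sets = 0.0359), so the probe sets disagree.

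Gbp2, a guanylate-binding GTPase, fell with siKeap1-2. It read 11.02, 11.04, 10.84 and 11.06 with siControl and 10.56, 10.50, 10.44 and 10.28 with siKeap1-2, without overlap (−0.54 ± 0.11, adjusted p = 0.00812). Gbp3 fell by 0.41 with siKeap1-2 (adjusted p = 0.0278) and had −0.34 with siKeap1-1 (adjusted p 0.0521 without and 0.00434 with the block). Parp14, which attaches ADP-ribose to proteins, fell with both (−0.42, adjusted p = 0.0164, and −0.44, adjusted p = 0.0159). Its partner Parp9 had −0.12 and −0.29, the second with adjusted p 0.0608 without and 0.0105 with the block. Slfn5 read 7.74, 7.91, 8.39 and 8.21 in siControl, 7.17, 7.59, 7.45 and 7.75 in siKeap1-1 and 7.13, 7.37, 7.82 and 7.68 in siKeap1-2. It had −0.57 with siKeap1-1 and −0.56 with siKeap1-2, with adjusted p 0.0511 and 0.0652 without and 0.00276 and 0.0036 with the block. Its other 2 probe sets passed without the block in both comparisons.

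The remaining members stayed on one side of the threshold or crossed it with the block alone. Trim30a (−0.19, adjusted p 0.0685 without and 0.0444 with the block) and Herc6, the ligase that attaches Isg15 in mice (−0.26, 0.108 and 0.00533), passed with siKeap1-2 when blocked. Bst2 (−0.07 and −0.10), Cxcl10 (−0.10 and −0.01) and Ifi35, an interferon-induced leucine zipper protein (0.02 and −0.05), did not pass with either siRNA, blocked or not.

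Gbp2 (−0.28), Trim30a (−0.15) and Herc6 (−0.03) did not pass with siKeap1-1.

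The counts depend on single siControl arrays. Without siControl array 2 the number that fell was 6 with siKeap1-1 and 9 with siKeap1-2, and without siControl array 3 it was 6 and 10. Without siKeap1-2 array 1 it was 10 with siKeap1-2. In these fits, in the same order, 11.1%, 7.72%, 11.6%, 8.23% and 8.99% of all genes were called in either direction. Calls kept under all 18 alternatives were those of Ifit2, Oas3, Rtp4 and Xaf1 with siKeap1-1. With siKeap1-2 they were those of Ifit2, Oas3, Stat2, Rsad2, Usp18, Rtp4, Gbp2, Cmpk2 and Trim25. Ifit1, Ifit3 and Stat2 with siKeap1-1 were lost without siControl array 2 or 3 or siKeap1-1 array 1 or 4, among others, with adjusted p up to 0.118. Parp14 was lost without siControl array 2 (adjusted p = 0.0524) and Trim25 without siControl array 3, and with the mean over its probe sets, which disagree (adjusted p up to 0.109). The 9 other calls with siKeap1-2, those of Ifit1, Ifit3, Mx2, Oas2, Oasl1, Oasl2, Dhx58, Gbp3 and Parp14, were all lost without siControl array 2 (adjusted p at most 0.132 in any alternative). The mean of the macrophage markers was lower too, though single markers differed. It was 12.51 to 12.70 with siControl, 12.25 to 12.43 with siKeap1-1 and 12.14 to 12.30 with siKeap1-2. Of the 7 markers, 4 fell with siKeap1-1 and 2 with siKeap1-2. Fcgr1 was at 12.35 to 12.84 in siControl, 11.62 to 12.07 in siKeap1-1 and 11.44 to 11.64 in siKeap1-2. In the same order of groups, Itgam covered 10.23 to 10.91, 10.49 to 10.96 and 10.32 to 10.81. Csf1r covered 14.28 to 14.41, 14.31 to 14.46 and 14.25 to 14.39. The part of these markers in the falls was not tested.

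Set against each other, the siRNAs differed at 1 member. Rsad2 was 0.23 ± 0.06 higher with siKeap1-1 than with siKeap1-2 (adjusted p = 0.0279, 3.57% of all genes higher), with no overlap, and 0 members were lower (3.88%). The call was lost without siKeap1-1 array 2 or 4 or any siKeap1-2 array (adjusted p up to 0.205). With the block, 4 members were higher with siKeap1-1 (7.64% of all genes) and 2 lower (7.01%). Besides Rsad2 the higher ones were Stat2 (0.28, adjusted p 0.0793 without and 0.0119 with the block), Cmpk2 (0.51, 0.218 and 0.0363) and Herc6 (0.24, 0.185 and 0.0122). The lower ones were Xaf1 (−0.29, 0.0799 and 0.00321) and Isg20 (−0.22, 0.396 and 0.0417).

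Other genes of the pathway were taken from lists of its production arm, its receptors and signalling, and further effectors. Of 13 measured receptors and signalling genes, 1 fell with RA839 in WT (0.0879% of all genes) and 0 rose (0.572%). It was Ifnar1, a chain of the interferon receptor, which read 10.31, 10.24, 10.43 and 10.44 in WT_DMSO and 9.98, 9.58, 9.96 and 9.93 in WT_RA839 (−0.49 ± 0.10, adjusted p = 0.0254). In KO it read 10.54, 10.67, 10.71 and 10.70 in DMSO and 10.40, 10.48, 10.66 and 10.60 with RA839, and the difference between the responses was not called. For Ifnar1, WT_RA839 lies below WT_DMSO without overlap. Irf1, a factor induced by interferons, read 9.77, 9.64, 10.09 and 9.95 in WT_DMSO and 10.28, 10.09, 10.61 and 10.32 in WT_RA839 (0.47 ± 0.14, adjusted p 0.198 without and 0.00877 with the block). With siKeap1-1 Ifnar1 fell as well, from 10.76, 10.90, 10.86 and 10.81 to 10.26, 10.37, 9.99 and 10.19 (−0.63 ± 0.07, adjusted p = 0.000142). With siKeap1-2 it read 10.60, 10.66, 10.66 and 10.68, higher than with siKeap1-1 (siKeap1-1 lay −0.45 ± 0.07 from it, adjusted p = 0.00323).

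Socs3, an inhibitor of cytokine receptor signalling, rose with both siRNAs. It read 7.77, 7.65, 7.89 and 7.33 in siControl, 9.19, 9.10, 8.93 and 9.09 in siKeap1-1 and 8.14, 8.24, 8.31 and 8.47 in siKeap1-2. The changes were 1.42 ± 0.11 (adjusted p = 1.01e-05) and 0.63 ± 0.11 (adjusted p = 0.00368). Irf2, a factor that can repress these genes, fell with siKeap1-1 (−0.27, adjusted p = 0.0159). In all, 1 of 13 rose (8.67% of all genes) and 2 fell (6.39%) with siKeap1-1, and 1 rose (6.32%) and 0 fell (4.89%) with siKeap1-2.

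Between genotypes, 2 of these 13 genes were higher (11.2% of all genes) and 1 lower (13.8%) in KO in DMSO, and 4 were higher (14.6%) and 2 lower (15.8%) under RA839. Ifnar1 was higher in KO by 0.30 (adjusted p = 0.035) and 0.68 (adjusted p = 0.000116). Irf8, a factor of macrophage development, was higher by 0.36 (adjusted p = 0.00462) and 0.48 (adjusted p = 0.000397), and the kinase Jak1 lower by −0.34 (adjusted p = 0.00751) and −0.28 (adjusted p = 0.019). Under RA839, Stat3 (0.35, adjusted p = 0.00715) and Irf2 (0.43, adjusted p = 0.0452) were higher and Irf1 (−0.60, adjusted p = 0.00381) was lower.

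Of 15 measured genes that sense nucleic acid or make interferon, 1 was higher (11.2% of all genes) and 3 were lower (13.8%) in KO in DMSO. They were the adaptor Myd88 (0.34, adjusted p = 0.0117), and Tlr9 (−0.51, adjusted p = 0.00384), Ifna4 (−0.48, adjusted p = 0.00276) and Mavs (−0.45, adjusted p = 0.0268). Under RA839, 2 were higher, Myd88 and Irf3 (14.6% of all genes), and 3 lower, Tbk1, Ifna4 and Tlr9 (15.8%). Ifna4 covered only 3.31 to 3.60 in WT_DMSO and 2.95 to 3.06 in KO_DMSO, where the deleted Nfe2l2 read 3.40. Tlr9 covered 5.43 to 5.55 and 4.83 to 5.06. Both genes lie below the array medians of 5.61 to 5.71 in both genotypes, and whether they are expressed was not tested. The RNA receptor Tlr7 fell with siKeap1-1 (−0.25, adjusted p = 0.0075), and Tlr3 (−0.44, adjusted p = 0.00911) and Irf5 (−0.20, adjusted p = 0.0484) fell with siKeap1-2, where 6.39% and 4.89% of all genes fell.

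Of 17 further effectors, 4 fell (6.39% of all genes) and 1 rose (8.67%) with siKeap1-1, and 4 fell (4.89%) and 2 rose (6.32%) with siKeap1-2. Psmb9, a subunit of the immunoproteasome, fell with siKeap1-1 (−0.56 ± 0.06, adjusted p = 4.36e-05). Ifit1bl1, a relative of Ifit1, fell with both (−0.88, adjusted p = 0.0431, and −0.96, adjusted p = 0.0366), as did the DNA sensor Ifi204 (−0.49, adjusted p = 0.00612, and −0.51, adjusted p = 0.00596). Tor3a fell with siKeap1-1 (−0.37, adjusted p = 0.00181), and Oas1b (−0.49, adjusted p = 0.00813) and Ifitm3 (−0.26, adjusted p = 0.00367) fell with siKeap1-2. Ifi27 rose with both (0.33, adjusted p = 0.00256, and 0.51, adjusted p = 0.00015), and Samhd1 rose with siKeap1-2 (0.25, adjusted p = 0.0401). In KO, Ifitm3, which blocks viral entry, was higher in DMSO (0.92, adjusted p = 0.0407) and under RA839 (0.99, adjusted p = 0.0252), and Samhd1 was lower (−0.71, adjusted p = 0.00486, and −0.68, adjusted p = 0.00537). In all 2 were higher (11.2% of all genes) and 1 lower (13.8%) in DMSO, and 3 (14.6%) and 1 (15.8%) under RA839.

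Genes known more for interferon gamma, which signals through another receptor, were listed apart. Of 12 measured, 2 fell and 0 rose with each siRNA (6.39% and 4.89% of all genes fell), Irgm2 (−0.68, adjusted p = 0.00462) and Ciita (−0.44, adjusted p = 0.0109) with siKeap1-1, and Irgm1 (−0.40, adjusted p = 0.0254) and Gbp7 (−0.37, adjusted p = 0.00631) with siKeap1-2. In KO, Igtp was higher in DMSO (0.82, adjusted p = 0.00986) and Ido1 lower (−1.07, adjusted p = 0.0116), 1 of 12 in each direction (11.2% and 13.8% of all genes). With RA839, 0 of 12 passed in either genotype. With the replicate block 6 of the 12 fell with each siRNA, as did 6 and 9 of the 17 further effectors, 4 and 3 of the 13 receptors and signalling genes, and 1 and 4 of the 15 sensing and production genes, against 10.5% and 9.08% of all genes.

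Other genes followed the members from array to array within groups. Over the 16 compound arrays, deviations from the group mean were most correlated with the median deviation of the members for Gbp6 (Pearson r = 0.985), Ifit1bl1 (0.984), Diras2 (0.983), Ly86 (0.983) and Mmp2 (0.981). H2-Oa (0.979), Notch1 (0.977), Lgals3bp (0.977), AW112010 (0.975) and Irgm2 (0.974) came next. Among the members themselves r ran up to 0.99 (Ifit1), and the lowest values were those of Trim25 (0.04) and Ifi35 (0.446). Over the 12 siRNA arrays the highest were Ifi213 (0.965), Ms4a4c (0.947), Trim54 (0.938), Irf8 (0.938) and Cdc42bpg (0.934), then Ifit1bl1 (0.926), Dmkn (0.913), Hsf4 (0.913), Zfp429 (0.905) and Ly6e (0.903). There the members Oas3 (0.135), Eif2ak2 (0.138), Isg20 (0.158), Trim30a (0.206), Cxcl10 (0.269) and Trim25 (0.315) followed the group little. These are descriptions over arrays that share RNA quality, normalization and replicate number, and they carry no test.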

How the data were processed

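RNA of 28 samples was hybridised to 1-colour Affymetrix mouse arrays. The deposited table holds log2 values of 45101 probe sets, which the authors made with RMA, per the submitters' processing notes. RMA corrects background, brings arrays to a common distribution and joins the probes of a set into 1 value, and the sources used here do not name its version. No reads or intensities were used, so precision rests on the number of arrays.

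Gene names came from the annotation of the platform. Of the probe sets, 34945 name 1 gene and were kept, with 1 used per gene, that of the highest mean over all arrays (18193 genes). Each experiment was fitted apart with limma 3.58.1 in R 4.3.3 (1 coefficient per group, eBayes, two-sided, Benjamini-Hochberg over all genes, adjusted p under 0.05). Changes are log2 fold changes ± SE with 4 arrays per group, and p-values measure the spread between these samples. The test was also run on simulated arrays with independent noise, which lack the shared deviations of same-numbered arrays described below. No result here rests on that run.

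Same-numbered arrays deviated together within WT (correlations across genes of 0.27 to 0.46), within KO (0.66 to 0.70) and within the siRNA experiment (0.12 to 0.66), and not between genotypes (−0.29 to −0.01). What a number shares is not stated in the labels, from which the numbers were taken. A fit with the number as a block (a random block for KO against WT) was therefore run as an alternative, and its value is given where it changed a call.

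Values in every array are given for the members with the largest rises and falls past the threshold (up to 5 each per comparison), the 5 with the largest spread in each experiment, and Irf7, Irf9 and Stat2. Of pathway genes, up to 4 past the threshold per direction and comparison were named, and the 10 other genes most correlated with the members. The members and lists were chosen with earlier results of these data known. Promoter sequences are from RefSeq.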

Additional observations from a re-analysis of the deposited data

Results flagged for a closer look

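In groups of 4 arrays, the highest or lowest array was compared with its nearest neighbour, and the gap was divided by the range of the group. Of 238 such sets (the 33 members and the level of the group in 7 groups), 9 exceeded Dixon's critical value for 4 samples, and chance alone gives about 1 in 20. In WT_RA839, array 2 was the low one for 4 members: the antiviral enzyme Rsad2 (ratio 0.95), the kinase Eif2ak2 (0.901), the ubiquitin ligase Trim30a (0.846) and Oasl1 (0.834). This array has a Gapdh 3′ to 5′ difference of 3.74, and the part of RNA quality in these values was not tested. In WT_DMSO, array 3 was high for Slfn5 (0.895) and low for Trim25 (0.847). With siKeap1-2, array 1 was low for Ifit1 (0.848), and array 4 was low for Isg20 (0.849) and the RNA sensor Ifih1 (0.846).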

How the results depend on the processing

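The replicate block gave 17 members called for siKeap1-1 against siControl (10 without it), 24 for siKeap1-2 against siControl (18), 6 for siKeap1-1 against siKeap1-2 (1), 8 for KO against WT in DMSO (6) and 11 under RA839 (9). The shares of all genes called with the block were 24%, 20.4%, 14.6%, 24.8% and 30.1%, in that order. The block gave 0 for RA839 in WT (2.67% of all genes), in KO (0%) and for their difference (0.363%), and no call of the fit without it was lost. Array weights gave 16 for siKeap1-1 (18.7% of all genes), 2 for siKeap1-1 against siKeap1-2 (9.58%) and 11 for KO against WT in DMSO (31.4%). An adjusted p under 0.01 left 4 for siKeap1-1 (8.07% of all genes), 9 for siKeap1-2 (5.45%) and 0 for siKeap1-1 against siKeap1-2 (3.26%). For KO against WT it left 2 in DMSO (13.5%) and 4 under RA839 (17.1%). With only the groups compared in the fit, siKeap1-1 had 6 (11.4% of all genes) and siKeap1-1 against siKeap1-2 had 0 (4.64%). That last comparison had 2 with a trended robust prior (8.7%), 0 with the mean over probe sets (6.74%) and 3 among brighter genes (18.3% of those). Without replicate 1 of WT in both treatments, KO against WT in DMSO had 3 (20.9% of all genes), and without replicate 1 of KO in both, 3, with 5 under RA839. These pairs of arrays were left out together as a choice made after seeing the data. Leaving out 1 array at a time, or such a pair, gave 0 for RA839 in WT, in KO and for their difference, 3 to 7 for KO against WT in DMSO and 5 to 12 under RA839. It gave 6 to 13 for siKeap1-1, 9 to 17 for siKeap1-2 and 0 to 3 between the siRNAs. With 1 array left out, 19.7% to 23.4% of all genes were called for KO against WT in DMSO and 24.8% to 29.7% under RA839. With all arrays these shares were 25.1% and 30.4%. In the siRNA fits they were 11.1% to 14.4%, 7.48% to 9.8% and 4.67% to 7.32%, against 15.1%, 11.2% and 7.45% with all arrays. For the other pairs the shares are not given here. The cause of these moves was not tested, and the fits that leave arrays out also have fewer arrays. No value changed sign past the threshold in any alternative. For RA839 in WT the median change of the members moved between −0.28 (without WT_DMSO array 2) and 0.12 (without WT_RA839 array 2) as single arrays were left out. Each of these fits keeps the other array of that number. With WT replicate 1, 2, 3 or 4 left out of both treatments, the median was −0.04, −0.06, −0.01 or −0.09. These values lie close to 0, and the sign is not settled by the fits without single arrays.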
